A study of Mus musculus with 8 samples.

Results

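The probes described here were those for cytosolic and mitochondrial chaperones, chosen by gene symbol alone: every probe named for the Hsp70, small Hsp, Hsp60 and Hsp10, Hsp110, Hsp90, DnaJ, Cct, Bag or heat shock factor families, leaving out the endoplasmic reticulum chaperone Hspa5. There were 88 such probes with 65 gene symbols, of 25697 probes with 18120 symbols on the Illumina MouseRef-8 v2 array. The study asked which genes respond to Bcl11b, a zinc finger transcription factor of striatal neurons, in the mouse line STHdh. This is a single line of striatal progenitor cells with wild-type huntingtin (HdhQ7), conditionally immortalized from embryonic striata, and both groups came from it. The 4 Bcl11b arrays carried RNA of cells collected 2 days after transfection with pcDNA3.1 holding the cDNA of the Bcl11b beta isoform, and the 4 control arrays that of mock cells given pcDNA3.1, which the labels also call wild-type.

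Chaperones keep other proteins from aggregating and help them to fold. Hsp70 proteins hold short exposed stretches of a client in a cycle of ATP binding and hydrolysis. J proteins (the DnaJ families) bring the client and start the hydrolysis, while nucleotide exchange factors (the Hsp110 and Bag families) let the client go. Small Hsps hold unfolded proteins without ATP, Hsp60 with Hsp10 folds proteins inside the mitochondrial matrix, and the CCT ring folds actin and tubulin in the cytosol. Heat shock factors bind arrays of the unit GAA and its reverse complement TTC in promoters and raise many of these genes when proteins misfold. In the striatum chaperones are studied for their action on expanded polyglutamine proteins, and the J protein Dnajb6 is known as a strong suppressor of that aggregation.

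Of the 88 probes, 50 (42 symbols) were detected on all 8 arrays at a detection p-value under 0.01, which compares a probe with the negative control beads of its array, 35 (21 symbols) were detected on none, and 3 were detected on some. Among the symbols without a detected probe were Dnaja1, Hsf4 and Hsf5. The names also brought in genes that are not cytosolic or mitochondrial chaperones. Dnajb9, Dnajb12, Dnajc3 and Dnajc10 encode J proteins of the endoplasmic reticulum, and Hspa5bp1, now Tmem132a, encodes a membrane protein named for its binding to Hspa5 that is not itself an Hsp70. No probe matched the Hsp90 or Hsp110 names, since the array carries these genes under the older symbols Hspca, Hspcb and Hsp105. In all, 24 probes with 18 older symbols belong to these families by their current names, and they are described after the members.

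Promoters are shown for genes on which the comparison turned and for which one was given (the members Dnaja2 and Dnajb4, and Hspa4l, on the array as Osp94 and so outside the symbol rule), the classical heat-inducible gene Hspa1a for comparison, and the stretch between Hspd1 and Hspe1, the genes of the mitochondrial chaperonin and its partner, which face away from each other at the starts used here. RefSeq also lists an Hspd1 start at 55088243, past the Hspe1 start at 55088148, and from that start the genes overlap. Sequences are from RefSeq on GRCm38.p6, written 5′ to 3′ on the gene's strand and ending at the base before the start of transcription. Capitals mark the 2-unit heat shock element, searched as GAANNTTC or TTCNNGAA (each reads the same on both strands, and neighbouring matches may overlap). Dnajb4 has 2 start sites and only the one whose window held the element is shown.
Dnaja2, chr8:85555362-85555611, minus strand: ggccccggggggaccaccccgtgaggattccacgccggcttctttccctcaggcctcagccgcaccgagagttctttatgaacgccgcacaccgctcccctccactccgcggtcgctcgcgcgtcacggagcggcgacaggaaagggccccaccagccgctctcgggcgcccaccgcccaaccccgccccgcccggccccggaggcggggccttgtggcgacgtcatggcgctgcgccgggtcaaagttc
Dnajb4, chr3:152193846-152194095, minus strand: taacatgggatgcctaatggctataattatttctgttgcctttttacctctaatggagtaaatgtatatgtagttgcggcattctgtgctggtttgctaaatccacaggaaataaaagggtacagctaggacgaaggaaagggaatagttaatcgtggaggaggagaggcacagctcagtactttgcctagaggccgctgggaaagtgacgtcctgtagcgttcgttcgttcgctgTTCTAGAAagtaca
Hspa4l, chr3:40745363-40745612, plus strand: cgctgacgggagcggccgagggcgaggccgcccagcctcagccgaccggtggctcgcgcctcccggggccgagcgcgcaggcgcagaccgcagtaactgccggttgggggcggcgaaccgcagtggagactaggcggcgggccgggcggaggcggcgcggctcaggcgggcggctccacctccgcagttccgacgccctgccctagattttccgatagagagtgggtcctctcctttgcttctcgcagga
Hspa1a, chr17:34972157-34972406, minus strand: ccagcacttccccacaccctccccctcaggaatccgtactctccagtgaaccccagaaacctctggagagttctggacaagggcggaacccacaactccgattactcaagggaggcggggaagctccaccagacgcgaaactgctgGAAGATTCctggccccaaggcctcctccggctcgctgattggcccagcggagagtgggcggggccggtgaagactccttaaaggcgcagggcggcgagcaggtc
Hspe1 (Hspd1 starts at the far end, on the minus strand), chr1:55087933-55088147, plus strand: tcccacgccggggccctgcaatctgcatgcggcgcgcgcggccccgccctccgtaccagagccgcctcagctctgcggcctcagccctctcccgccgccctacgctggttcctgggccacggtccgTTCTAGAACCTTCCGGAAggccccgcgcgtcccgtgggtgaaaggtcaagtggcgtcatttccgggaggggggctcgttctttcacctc

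The element lay at -104 to -97 from the Hspa1a start and at -14 to -7 from the Dnajb4 start. Between Hspd1 and Hspe1, 3 overlapping matches formed a longer array from -89 to -72 of the Hspe1 start. The windows of Dnaja2 and Hspa4l held no match. RefSeq windows were given for 52 of the 65 member genes, not for Hsf1, Dnajc11, Tmem132a or Hspa8 among others. The 2-unit element was in 15 of the 71 member windows (21.1%) against 12.8% of all 32851 windows, and the 3-unit element (the same with 1 more unit after NN) was in 4 (5.63%), of Dnajb6, Hspd1 and Hspe1, against 0.466%. The Hspd1 and Hspe1 windows overlap, so the same letters count for both. These are matches of letters only, and no binding was measured there.

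Across the whole array, Bcl11b array 4 stood apart from its group: it had a median correlation of 0.933 with its group, beside 0.988 to 0.991 for the other Bcl11b arrays, and correlated best with mock array 2 (0.981). It was the lowest or highest of its group for 82% of the 50 chaperone probes detected on all arrays and for 80.5% of all detected probes. The median deposited signal was 31.6 to 53.9 on the mock arrays and 20.1 to 30.2 on the Bcl11b arrays, with 10121 to 10784 probes detected on an array. The 1 Bcl11b probe was detected on 0 arrays, so the transfected gene could not be checked on them. The paper's methods state that transfection was assessed in duplicate sets of cells, by GFP and by qPCR of Bcl11b mRNA. The medium spiny neuron markers were detected on no array for any of the 8 matched genes. By standard PCR the paper reports that these cells express Ppp1r1b and Rgs9, which are among those genes. The progenitor markers Nes, Vim and Sox2 were detected on all arrays. Of their 5 probes, 1 for Sox2 was lower (ILMN_1248711, -0.71 ± 0.27, SE; adjusted p = 0.438) and 1 for Nes higher (ILMN_2904590, 0.43 ± 0.13, SE; adjusted p = 0.304) in Bcl11b cells by the unadjusted rule used for the chaperones, while the other probe of each, at 0.20 and -0.00071, did not pass it. Of the 4 fibroblast markers, Dcn rose in Bcl11b cells on both probes (p adjusted over all probes, from limma, 0.0492 and 0.0885), with ILMN_2747959 at 6.95 to 7.83 on the mock arrays and 8.60 to 8.82 on the Bcl11b arrays, and Col1a1 had a log2 fold change of 0.22 ± 0.27 (SE; adjusted p = 0.894). Col3a1 was at -0.87 ± 0.42 (SE; adjusted p = 0.572) on ILMN_1258629, and Col1a2 was detected on no array. Of the neuron markers, Map2 was detected on all 8 arrays by ILMN_3137552, at 0.21 ± 0.13 (SE; adjusted p = 0.683). The probes for Tubb3, Syt1 and Snap25 were detected on no array. No probe for the astrocyte, oligodendrocyte, microglia or endothelial markers was detected on all 8 arrays. The part of the Dcn, Sox2 and Nes differences in those of the chaperones was not tested.

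The arrays showed few differences in chaperone mRNA between Bcl11b-transfected and mock-transfected cells. Both detected probes for Dnaja2 and the detected probe for Dnajb4, J proteins of the cytosol, were 1.34 to 1.61-fold lower at an unadjusted threshold. These were 3 of the 19 J protein probes detected on all arrays (15.8%), against 10.5% called lower of all probes so detected. Hsf1, the main heat shock factor, was 1.36-fold lower with overlapping groups. The heat-inducible Hspa1a, Hspb1, Hspd1 and Dnajb1 did not pass either threshold by quantile normalization. When arrays were divided by their medians, 1 Hspd1 probe was called higher. So were 40.1% of all detected probes with a mean log2 signal of 13 or more. Of the 88 probes, 1 passed an adjusted p-value of 0.10 (limma with Benjamini-Hochberg adjustment over all probes), against 0.981% of all 25697 probes. It was the probe for Dnajc14, a J protein of the endoplasmic reticulum membrane, which was not detected on any array, so no fold change is given. None of the 53 members detected on at least 1 array passed, against 1.67% of all probes so detected, although 8 of these 53 had an unadjusted p-value under 0.05 (background 17.7%).

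At an unadjusted p-value under 0.05 and a log2 fold change of at least 0.32 in size (called, from here on), 10 of the 88 probes were called (11.4%), against 9.02% of all probes. Of these, 8 were lower in Bcl11b cells (background 5.81%) and 2 were higher (background 3.2%). The 2 higher probes, for the small Hsp Hspb2 and the distant Hsp70 relative Hspa12a, passed detection nowhere. Among the 53 members detected on at least 1 array, 7 were lower and 0 were higher, with backgrounds of 10.5% lower and 4.32% higher. Among the 50 detected on all arrays, 6 were lower (12%) and 0 were higher, against 10.5% lower and 3.8% higher over the 9360 probes detected on all arrays. The share called lower was therefore near that of all probes. The highest of the 4 Bcl11b arrays was under the lowest of the 4 mock arrays for 4 of the 50 probes (8%), against a background of 7.38%, and the reverse held for 0, against 2.5%. Loss of cells rich in an mRNA and less of it per cell cannot be told apart in these bulk samples.

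**Figure D1:**
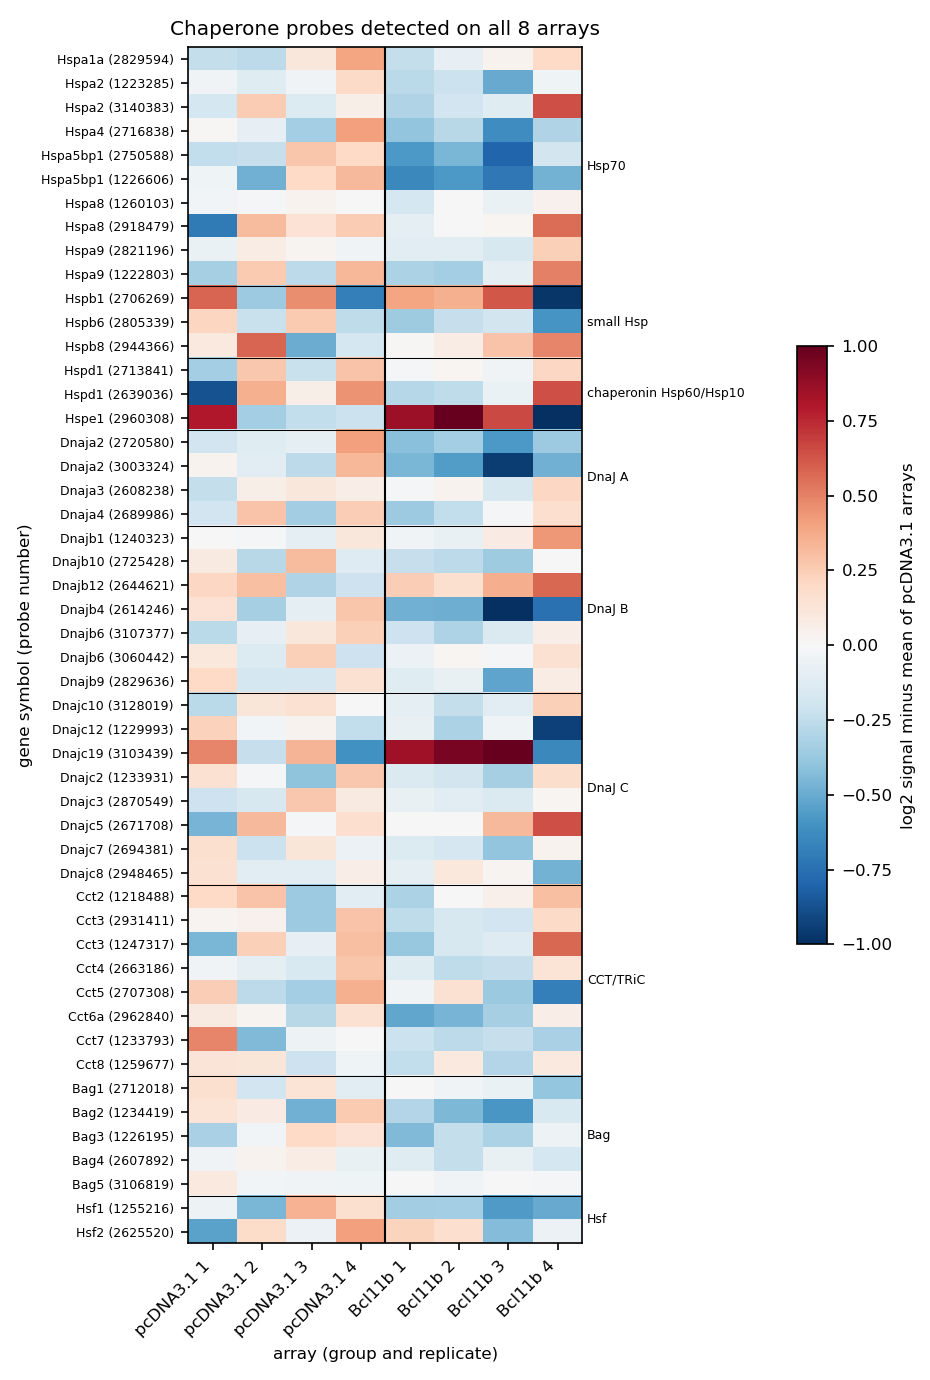
Each row is a chaperone probe detected on all 8 arrays and each column is an array. Colour gives the log2 signal after quantile normalization minus the mean of the 4 pcDNA3.1 arrays, limited to between -1 and 1, with rows grouped by family; most rows are pale, the Dnaja2 and Dnajb4 rows are blue on all 4 Bcl11b arrays, and the column of Bcl11b 4 often differs in colour from the other Bcl11b columns.

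The 50 detected probes had a median log2 fold change of -0.11 (Bcl11b minus pcDNA3.1), beside -0.03 over all 9360 probes detected on all arrays, and division of each array by its median turned both medians to 0.03 and 0.07. Of the 50 probes, 36 (72%) had a lower mean in Bcl11b cells, against 53.4% of all detected probes, but by division 24 (48%) did, against 41.5%. The log2 fold change was under 0.32 in size for 37 (74%), against 68.1%. By family, the median was -0.27 for the 4 DnaJ A probes (-0.23 by division), -0.15 for the 7 DnaJ B probes (-0.10) and -0.09 for the 8 DnaJ C probes (-0.036). It was -0.06 for the 10 probes with Hsp70 names (near 0 by division). These include Hspa5bp1 (-0.50 and -0.60), which is not an Hsp70, and Hspa4 (-0.40), an Hsp110-type factor. The median was -0.11 for the 8 CCT probes (0.29 by division) and -0.15 for the 5 Bag probes (-0.05 by division). The 3 small Hsp probes had a median of 0.10 (0.16 by division) and the 3 Hsp60 and Hsp10 probes one of 0.04 (0.51 by division).

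**Figure D2:**
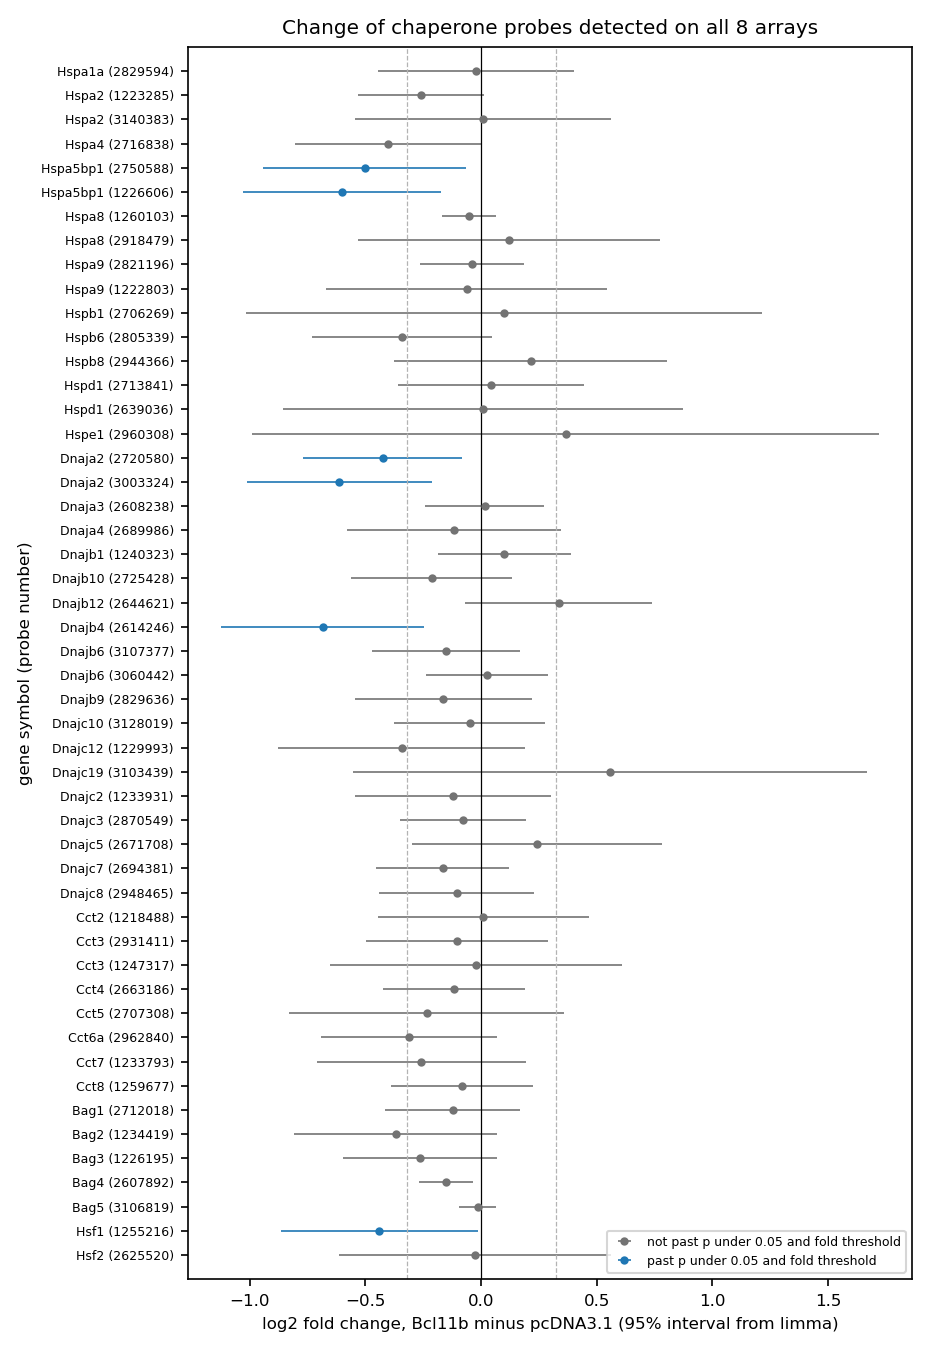
Log2 fold change (Bcl11b minus pcDNA3.1, x axis) of the 50 chaperone probes detected on all arrays, with the 95% interval from limma. Dashed lines mark a log2 change of 0.32 in size; by quantile normalization the 6 blue probes passed p under 0.05 with at least that change, all to the lower side, and the widest intervals are those of Hspe1, Dnajc19 and Hspb1.

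Hsf1, the transcription factor that drives the heat shock response, is taken first. Its probe ILMN_1255216 read 12.10, 11.70, 12.51 and 12.32 (log2 signal) on mock arrays 1 to 4 and 11.81, 11.82, 11.59 and 11.66 on Bcl11b arrays 1 to 4. Mock array 2 lay among the Bcl11b arrays, so the groups overlapped. The log2 fold change was -0.44 ± 0.18 (SE, n = 4 arrays in each group; adjusted p = 0.462 by limma), past the unadjusted threshold and so called. The call was lost with division by the array median (-0.26), with the replicate block (-0.44) and in 7 of the 8 fits that left out an array, in which the log2 fold change was -0.47 to -0.33. Hsf2, a relative active in development, had a log2 fold change of -0.03 ± 0.24 (SE; adjusted p = 1).

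J proteins of class A resemble bacterial DnaJ over their whole length. Dnaja2, a general cytosolic member, was measured by 2 detected probes. Probe ILMN_3003324 read 8.65, 8.51, 8.36 and 8.96 on the mock arrays and 8.16, 8.06, 7.67 and 8.14 on the Bcl11b arrays (log2 signal). The highest Bcl11b array was under the lowest mock array, a log2 fold change of -0.61 ± 0.17 (SE; 1.53-fold lower, adjusted p = 0.255). Probe ILMN_2720580 read 10.46, 10.52, 10.54 and 11.05 on the mock arrays and 10.22, 10.30, 10.07 and 10.28 on the Bcl11b arrays. These groups did not overlap either, with a log2 fold change of -0.43 ± 0.14 (SE; 1.34-fold lower, adjusted p = 0.365), and this probe lost its call without mock array 4 (which was the highest), without Bcl11b array 3 and with division by the array median. The Dnaja2 promoter shown above held no 2-unit element. The other Dnaja2 probe was not detected. In the same class, Dnaja3, which works with mitochondrial Hsp70, had a log2 fold change of 0.02 ± 0.11 (SE; adjusted p = 1) and Dnaja4 of -0.12 ± 0.19 (SE; adjusted p = 0.991).

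Class B J proteins share the J domain and a glycine and phenylalanine-rich stretch but lack the zinc-binding region of class A. Dnajb4, a cytosolic member close to Dnajb1, had the largest difference among the 50 detected probes by quantile normalization, while by division Dnajc19 (0.75) and Hspa8 ILMN_1260103 (0.73) exceeded its -0.65. Its probe ILMN_2614246 read 8.89, 8.42, 8.66 and 9.02 on the mock arrays and 8.27, 8.26, 7.72 and 8.01 on the Bcl11b arrays (log2 signal). Every Bcl11b array was below every mock array, with a log2 fold change of -0.68 ± 0.18 (SE; 1.61-fold lower, adjusted p = 0.246). The other 2 Dnajb4 probes were not detected. Dnajb1, the heat-inducible class B protein, read 12.05, 12.05, 11.96 and 12.17 on the mock arrays and 12.02, 11.98, 12.14 and 12.49 on the Bcl11b arrays. Its groups overlapped, at 0.10 ± 0.12 (SE; adjusted p = 0.887). Dnajb6 had a log2 fold change of -0.15 ± 0.13 on ILMN_3107377 (SE; adjusted p = 0.802) and of 0.03 ± 0.11 on ILMN_3060442 (SE; adjusted p = 1). The intervals of the Dnajb6 differences ran from -0.47 to 0.17 and from -0.24 to 0.29. Dnajb12 had a higher mean in Bcl11b cells, 0.33 ± 0.17 (SE; adjusted p = 0.600), and Dnajb10, the older symbol of Dnajb2, a lower one, -0.21 ± 0.14 (SE; adjusted p = 0.736).

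Class C J proteins share only the J domain. Dnajc11, a protein of the mitochondrial outer membrane linked to the upkeep of cristae, was near the detection limit. Its probe ILMN_2643177 passed detection on 3 of the mock arrays and on 0 Bcl11b arrays, and read 6.10, 6.33, 6.63 and 6.30 on the mock arrays and 5.55, 5.81, 5.20 and 5.52 on the Bcl11b arrays (log2 signal). The groups did not overlap (adjusted p = 0.141). No fold is given, because the mock mean of 6.34 was not above the dimmest detected signals of the Bcl11b arrays, which lay between 6.27 and 6.46. A second Dnajc11 probe, ILMN_1237476, passed detection on 1 mock array only (adjusted p = 0.521). The undetected Dnajc14 probe read 5.37 to 5.79 on the mock arrays and 4.56 to 4.95 on the Bcl11b arrays (adjusted p = 0.0599), all below the dimmest detected signal of any array. Among the 8 class C probes detected on all arrays none was called. Dnajc5, the cysteine string protein of synaptic vesicles, had a log2 fold change of 0.24 ± 0.22 (SE; adjusted p = 0.802), Dnajc7, which also binds Hsp90, of -0.17 ± 0.12 (SE; adjusted p = 0.769) and Dnajc2, a ribosome-bound J protein, of -0.12 ± 0.18 (SE; adjusted p = 0.957). A brighter Dnajc2 probe, listed under the older symbol Zrf2 (ILMN_1249242), was at 0.10 ± 0.20 (SE) and also detected on all arrays.

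**Figure D3:**
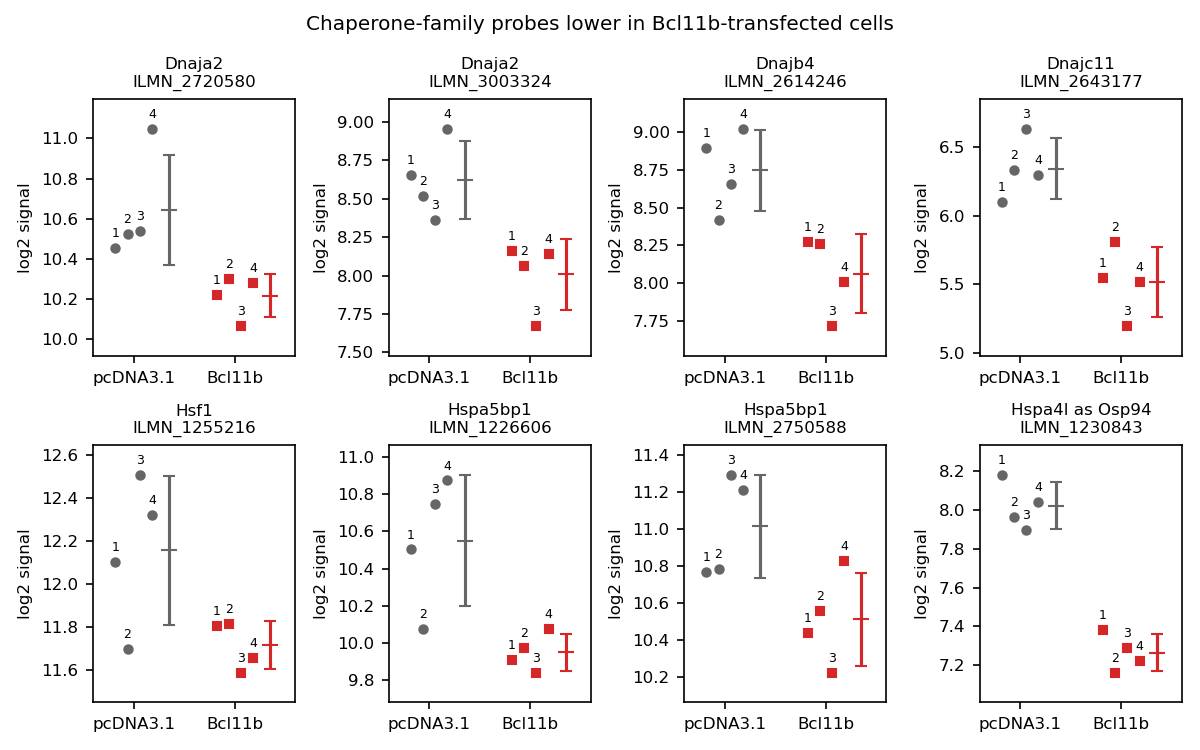
Log2 signal after quantile normalization (y axis, its range set separately for each panel) on each pcDNA3.1 (circles) and Bcl11b (squares) array, with array numbers, for the 7 member probes detected on at least 1 array and called lower, and for Hspa4l; bars give the mean ± SD of 4 arrays. Groups do not overlap for Dnaja2, Dnajb4, Dnajc11 and Hspa4l and overlap for Hsf1 and Hspa5bp1.

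In the Hsp70 family itself, no detected probe of a true Hsp70 passed a threshold by quantile normalization. Division by the array median put Hspa8 ILMN_1260103 at 0.73 (adjusted p = 0.204) and Hspa9 ILMN_2821196 at 0.65 (adjusted p = 0.209), both called higher. Division called higher 40.1% of all detected probes with a mean log2 signal of 13 or more. Without normalization these Hspa8 and Hspa9 probes were at -0.02 and -0.10. Hspa8, the constitutive cytosolic Hsp70, had a log2 fold change of -0.05 ± 0.05 on ILMN_1260103 (SE; adjusted p = 0.802) and of 0.12 ± 0.27 on ILMN_2918479 (SE; adjusted p = 1). The first probe read 14.40, 14.41, 14.46 and 14.43 on the mock arrays and 14.25, 14.42, 14.36 and 14.47 on the Bcl11b arrays, near the top of the signal scale. Hspa1a, the inducible Hsp70, read 7.62, 7.59, 7.97 and 8.25 on the mock arrays and 7.62, 7.77, 7.89 and 8.06 on the Bcl11b arrays. Its groups overlapped throughout, and the log2 fold change of -0.02 ± 0.18 (SE; adjusted p = 1) had an interval from -0.45 to 0.40. Hspa9, the Hsp70 of the mitochondrial matrix, had a log2 fold change of -0.04 ± 0.09 on ILMN_2821196 (SE; adjusted p = 1) and -0.06 ± 0.25 on ILMN_1222803 (SE; adjusted p = 1). Hspa2, best known from the testis, had a log2 fold change of -0.26 ± 0.11 on ILMN_1223285 (SE; adjusted p = 0.509) and 0.01 ± 0.23 on ILMN_3140383 (SE; adjusted p = 1).

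The 2 probes of the Hsp70 group that were called both belonged to Hspa5bp1 (Tmem132a), which the name alone put there. Probe ILMN_1226606 read 10.50, 10.07, 10.75 and 10.88 on the mock arrays and 9.91, 9.97, 9.84 and 10.07 on the Bcl11b arrays. Only mock array 2 reached down to the highest Bcl11b array, and the log2 fold change was -0.60 ± 0.18 (SE; 1.52-fold lower, adjusted p = 0.302). Probe ILMN_2750588 had a log2 fold change of -0.50 ± 0.18 (SE; 1.42-fold lower, adjusted p = 0.401), with overlap. Its call was lost in 7 of 19 alternatives: division by the array median (-0.43), the replicate block (-0.50) and the fits without mock array 3 or 4 or without Bcl11b array 1, 2 or 3. Without these probes, 4 of the 48 remaining detected members were called lower, against 10.5% of all probes detected on all arrays.

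The clearest difference in these families was that of a nucleotide exchange factor of Hsp70. Hspa4l, an Hsp110-type exchange factor that the array names Osp94 and the symbol rule therefore left out, read 8.18, 7.97, 7.90 and 8.04 on the mock arrays and 7.38, 7.16, 7.29 and 7.22 on the Bcl11b arrays (probe ILMN_1230843, log2 signal). The groups were far apart next to their spread, at -0.76 ± 0.07 (SE; 1.69-fold lower, adjusted p = 0.0235). It was the only probe of the 24 older-symbol probes past the adjusted threshold. Its difference was -0.74 with division by the array median, and its adjusted p-value rose above 0.10 without normalization (0.125), with the shift of the lowest signal (0.132), with the replicate block (0.110) and with limma-trend (0.135).

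The other Hsp110-type factors, set beside Hspa4l after their values were seen, did not pass. Hspa4 read 10.89, 10.80, 10.54 and 11.29 on the mock arrays and 10.49, 10.60, 10.26 and 10.58 on the Bcl11b arrays, with overlap through mock array 3 only, at -0.40 ± 0.17 (SE; adjusted p = 0.485). Hsph1, listed as Hsp105, had a log2 fold change of -0.29 ± 0.13 (SE; adjusted p = 0.501), also with overlap. All 5 Bag probes had lower means in Bcl11b cells and none was called, though division by the array median put Bag1 at 0.22 and Bag5 at 0.055. Bag4, which binds Hsp70 and death receptor domains, had groups that met without overlap (the lowest mock and the highest Bcl11b array both at 10.56), at -0.15 ± 0.05 (SE; 1.11-fold lower, adjusted p = 0.336). Bag2, an inhibitor of the ubiquitin ligase Chip, had a log2 fold change of -0.37 ± 0.18 (SE; adjusted p = 0.589), Bag3, which sends clients to autophagy, of -0.26 ± 0.14 (SE; adjusted p = 0.629), Bag1 of -0.12 ± 0.12 (SE; adjusted p = 0.805) and Bag5 of -0.01 ± 0.03 (SE; adjusted p = 1).

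Among the chaperonins, the 8 detected CCT probes, for Cct2, Cct3, Cct4, Cct5, Cct6a, Cct7 and Cct8, had lower means in Bcl11b cells for 7 and none was called, while their median was -0.11 by quantile normalization and 0.29 by division. The largest difference was that of Cct6a, which turned to 0.40 by division and by quantile normalization read 14.49, 14.42, 14.12 and 14.55 on the mock arrays and 13.88, 13.93, 14.06 and 14.46 on the Bcl11b arrays. Bcl11b arrays 1 to 3 lay below every mock array while Bcl11b array 4 lay among them, so the change of -0.31 ± 0.16 (SE; adjusted p = 0.609) became -0.42 (adjusted p = 0.243) without that array and then passed the unadjusted rule. Tcp1, a CCT subunit outside the symbol rule, was at 0.04 ± 0.15 (SE) on ILMN_2677386 and -0.09 ± 0.24 (SE) on ILMN_2774140. By division these were 0.44 and -0.02. The mitochondrial chaperonin Hspd1 (Hsp60) had a log2 fold change of 0.04 ± 0.17 on ILMN_2713841 (SE; adjusted p = 1) and 0.01 ± 0.36 on ILMN_2639036 (SE; adjusted p = 1), and its partner Hspe1 (Hsp10) of 0.37 ± 0.56 (SE; adjusted p = 0.973). By division the first Hspd1 probe was at 0.51 (adjusted p = 0.304) and called higher. So were 40.1% of all detected probes with a mean log2 signal of 13 or more. Of the small Hsps, Hspb6 had a log2 fold change of -0.34 ± 0.16 (SE; adjusted p = 0.559), Hspb8, a partner of Bag3, of 0.21 ± 0.24 (SE; adjusted p = 0.869), and Hspb1, which guards the actin skeleton, of 0.10 ± 0.46 (SE; adjusted p = 1).

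Of 16 listed genes that heat shock factors are known to raise or that encode these factors, 15 were matched, with 18 probes detected on all arrays. Of these probes, 2 were called lower, for Hsf1 and Hspa4l, and 0 higher, with backgrounds of 10.5% and 3.8%. Their median log2 fold change was -0.04, beside -0.03 over all detected probes. Hsp90aa1 (Hspca), the inducible cytosolic Hsp90, had a log2 fold change of -0.11 ± 0.24 (SE; adjusted p = 1). Hsp90ab1 (Hspcb), the constitutive form, had a lower mean on its 3 probes by quantile normalization, the lowest p-value being that of ILMN_1238221 (-0.30 ± 0.09, SE; adjusted p = 0.310, too small a change to be called), but division by the array median turned all 3 to higher (0.25, 0.04 and 0.15). Across all 24 older-symbol probes, 13 were detected on all arrays. Of these 13, 1 was called lower (Hspa4l) and 1 higher, against 10.5% and 3.8% of all probes so detected. The higher one was Dnajc27, listed as C330021A05Rik, a small GTPase with a J domain, at 0.49 ± 0.18 (SE; 1.40-fold, adjusted p = 0.401).

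Co-chaperones, prefoldin and phosducin-like proteins, mitochondrial proteases and endoplasmic reticulum chaperones were taken from a list of 54 partner genes. Of these, 48 were matched with 61 probes, 52 of them detected on all arrays. By the unadjusted rule, 3 probes were called lower and 1 higher, all detected on at least 1 array, and 0 passed the adjusted threshold. The shares over all probes were 5.81% lower and 3.2% higher. Over probes detected on at least 1 array they were 10.5% and 4.32%. Hspbp1, a cytosolic exchange factor of Hsp70 listed as 1500019G21Rik, read 9.19, 9.79, 9.49 and 9.17 on the mock arrays and 9.82, 9.84, 10.20 and 9.85 on the Bcl11b arrays. All Bcl11b arrays were above all mock arrays, at 0.52 ± 0.17 (SE; 1.43-fold higher, adjusted p = 0.346), the opposite direction to Hspa4l. Pdcl3, a phosducin-like partner of CCT, had a log2 fold change of -0.76 ± 0.27 (SE; 1.69-fold lower, adjusted p = 0.381) without overlap. Fkbp5, an Hsp90 co-chaperone of steroid receptors, had a log2 fold change of -0.38 ± 0.14 (SE; adjusted p = 0.428), and Cdc37l1, a relative of the Hsp90 co-chaperone Cdc37, of -0.48 ± 0.16 on 1 of 4 detected probes (ILMN_2918032, SE; adjusted p = 0.351) and of -0.28 to -0.09 on the others.

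The direction of the bright chaperone probes depended on how the arrays were put on 1 scale. Of the 50 detected members, 10 had a mean log2 signal of 13 or more, among them probes for Hspa8, Hspa9, Hspd1, Cct3, Cct4, Cct6a and Cct8. By quantile normalization 2 of these 10 had a higher mean in Bcl11b cells, and by division of each array by its median all 10 did, with 7 called higher. The same shift ran through all bright probes: the median over the 339 probes in that range was -0.04 by quantile normalization and 0.41 by division, and 40.1% of them were called higher by division. The members' medians there were -0.07 and 0.43. Over the 50 members, division by the median gave 3 probes called lower (background 6.62%) and 8 called higher (background 8.11%). Dnaja2 (ILMN_3003324), Dnajb4, Dnajc11 and Hspa5bp1 (ILMN_1226606) were called lower under both scalings. The calls of Dnaja2 ILMN_2720580, Hsf1 and Hspa5bp1 ILMN_2750588 were lost by division, and in the range of 10 to 12 the median over all detected probes was -0.03 by quantile normalization and 0.07 by division.

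**Figure D4:**
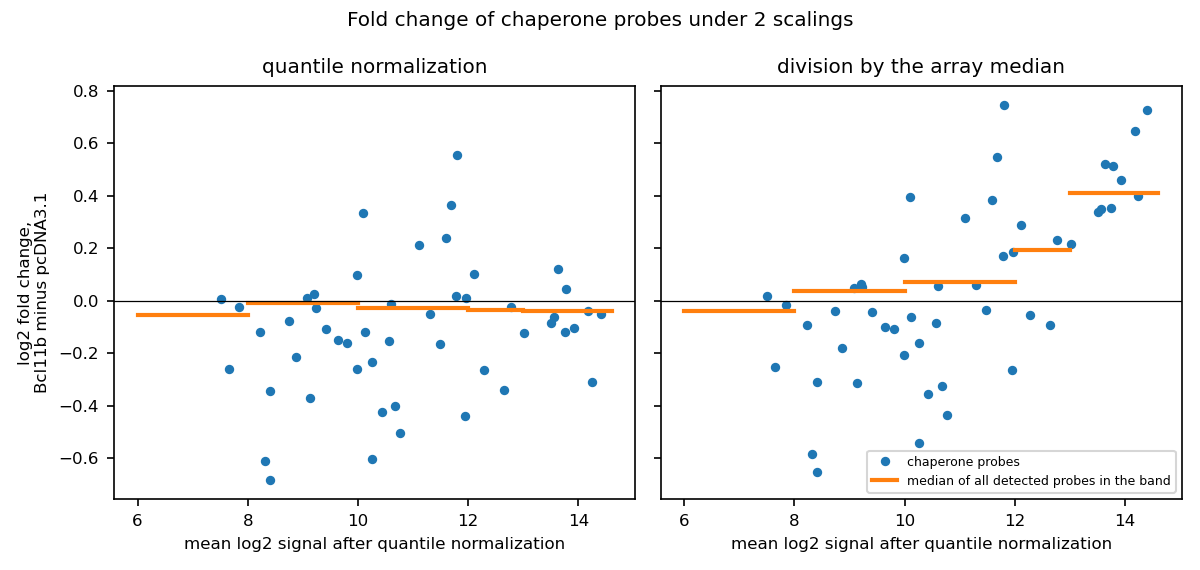
Log2 fold change (Bcl11b minus pcDNA3.1) of the 50 chaperone probes detected on all arrays against their mean log2 signal, by quantile normalization (left) and by division of each array by its median (right). Orange lines are medians of all detected probes in 5 ranges of signal; above 13 the members and all probes move together from near 0 to about 0.4.

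Several chaperone probes differed more between arrays of 1 group than between groups. As a set the members did not vary more than other probes. The SD within groups, pooled over both, had a median of 0.24 for members and 0.26 for all probes detected on all arrays. Hspe1, Dnajc19 and Hspb1 were picked as the most variable members, with an SD above 98.2%, 95.6% and 95.7% of all such probes. Hspe1 read 12.30, 11.16, 11.25 and 11.28 on the mock arrays and 12.35, 12.59, 12.16 and 10.34 on the Bcl11b arrays. Dnajc19, a J protein of the mitochondrial import motor, read 12.01, 11.29, 11.86 and 10.92 on the mock arrays and 12.37, 12.47, 12.59 and 10.88 on the Bcl11b arrays. Hspb1 read 10.51, 9.57, 10.39 and 9.24 on the mock arrays and 10.32, 10.28, 10.55 and 8.95 on the Bcl11b arrays. Each of these was lowest on Bcl11b array 4 and low on mock arrays 2 and 4, and Hspe1 was about as low on mock array 3. Of the partner genes, Grpel1, the exchange factor of mitochondrial Hsp70, was likewise low on these arrays (10.97, 10.48 and 10.90, beside 11.05 to 12.02 on the others), and so was Pfdn2, a prefoldin subunit (11.12, 10.80 and 10.97, beside 11.67 to 12.52).

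Hspd1 had the opposite order. Its probe ILMN_2639036 read 11.09, 12.32, 12.02 and 12.41 on the mock arrays and 11.68, 11.71, 11.89 and 12.60 on the Bcl11b arrays, so its highest 3 arrays were mock arrays 2 and 4 and Bcl11b array 4. Hspa9 (ILMN_1222803) and Cct3 (ILMN_1247317) were also highest on these 3 arrays, with 13.85, 13.92 and 14.09 for Hspa9 and 13.02, 13.08 and 13.35 for Cct3. Hspd1 and Hspe1, which encode the ring and the lid of the same chaperonin and share the stretch of promoter shown above, thus varied in opposite directions over the arrays. What set these arrays apart was not tested. Without Bcl11b array 4, Dnajc19 (0.96, adjusted p = 0.292) and Hspe1 (0.87, adjusted p = 0.370) were called higher in Bcl11b cells, and the Dnajb4 and Dnaja2 calls were still made. Dnajc19 and Hspe1 were lowest on that array, so leaving it out raised their Bcl11b means. In that fit 7 of the 50 members were called lower and 2 higher. The shares over all probes detected on all arrays were 11.8% and 7.83%.

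**Figure D5:**
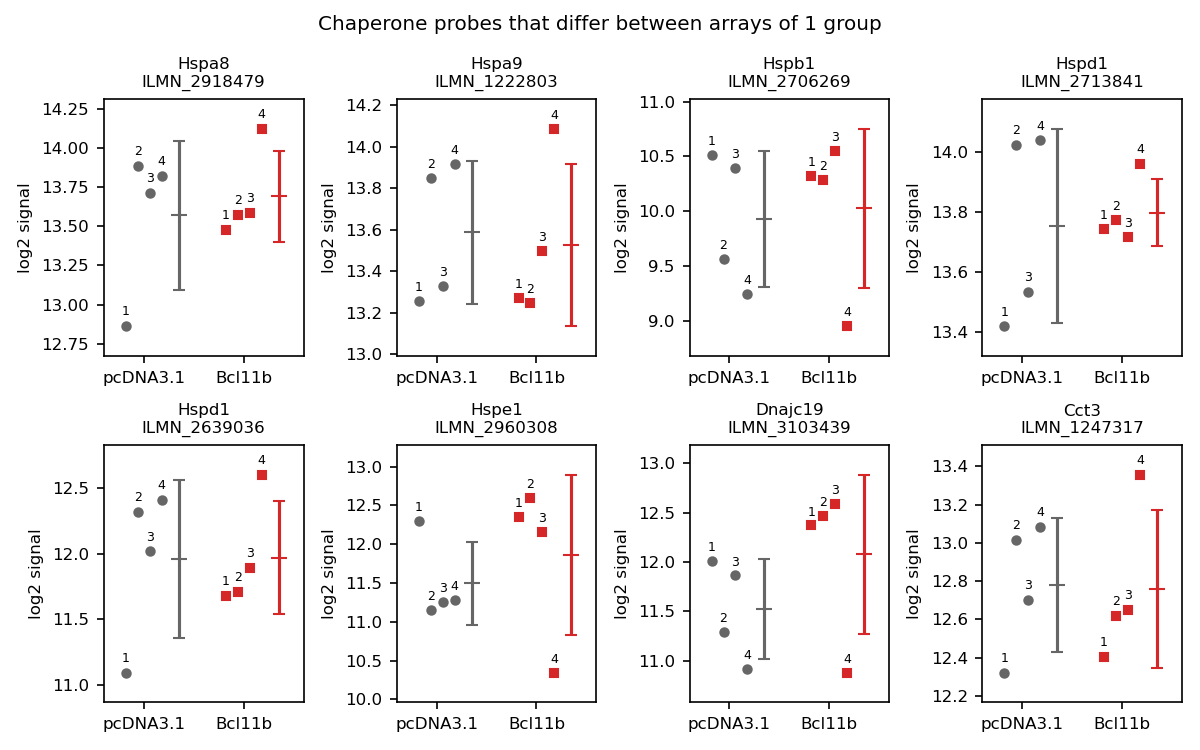
Log2 signal after quantile normalization (y axis, its range set separately for each panel) on each array, numbered as in the labels, for 8 chaperone probes that vary within groups; bars give the mean ± SD of 4 arrays. Hspb1, Hspe1 and Dnajc19 are lowest on Bcl11b 4, where the Hspa8, Hspa9, Hspd1 (ILMN_2639036) and Cct3 probes are highest.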

How the data were processed

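RNA of 8 samples was hybridized to 1 array each. The authors deposited the intensity of each probe as the average bead signal after background subtraction in GenomeStudio, not normalized between arrays, with a detection p-value. The precision is limited by 4 arrays in each group, each of a different set of transfected cells per the methods. After quantile normalization, intensities under 1 were raised to 1, and the log2 values of all 25697 probes were fitted without covariates in limma (version 3.58.1, R 4.3.3; lmFit, eBayes, two-sided), with Benjamini-Hochberg adjustment. A probe was called at an adjusted p under 0.10, or at p under 0.05 unadjusted if it changed 1.25-fold. On simulated data with 200 probes shifted by a log2 value of 1, 82 (41%) passed the adjusted threshold with 13 unchanged probes. The second was passed by 183 (91.5%) and by 3.62% of the unchanged probes. The simulated noise was independent between probes, without an array that stood apart. By quantile normalization the differences of Dnaja2, Dnajb4 and Hspa4l were smaller than the simulated shift, so these shares need not hold for them.

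The members and lists were chosen with earlier results of these data known. Named genes were the members past a threshold, the brightest probe of each family and the heat-inducible list, and other names were chosen after their values were seen. Older symbols were matched through the RefSeq annotation of GRCm38.p6. Replicate numbers were not treated as pairs, since deviations of same-numbered arrays did not all correlate (0.68, -0.63, 0.18 and 0.70 for numbers 1 to 4). These values cannot settle whether the arrays were paired. No arrays held identical values. Alternatives were neqc, no normalization, scaling to the array median, an offset of 16, a shift of the lowest signal, detection filters, the replicate block, limma-trend, arrayWeights, 1 probe per symbol and leaving out each array.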

Additional observations from a re-analysis of the deposited data

Results flagged for a closer look

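In 11 of 106 sets of 4 arrays examined, 1 array lay far from the other 3 of its group. Chance gives about 1 in 20 such sets, but the sets share the same arrays and are not independent. The share of all detected probes flagged by this rule was not counted, so the 11 sets are not shown to be particular to chaperones. All 11 fell on 3 arrays. On Bcl11b array 4, Bag1 was lower (12.68, beside 13.01 to 13.07), Dnajc19 was lower (10.88, beside 12.37 to 12.59), Hspb1 was lower (8.95, beside 10.28 to 10.55), Hspa8 ILMN_2918479 was higher (14.12, beside 13.48 to 13.59) and Hspa9 ILMN_2821196 was higher (14.43, beside 14.04 to 14.08). The same array had a median correlation with its own group of 0.933, beside 0.988 to 0.991. It was the lowest or highest of its group for 82% of the 50 chaperone probes detected on all arrays and for 80.5% of all detected probes. On mock array 1, Hspa8 ILMN_2918479 was lower (12.86, beside 13.71 to 13.88), Dnaja3 was lower (11.53, beside 11.83 to 11.88), Bag5 was higher (10.71, beside 10.57 to 10.58) and Hspe1 was higher (12.30, beside 11.16 to 11.28). On mock array 4, Dnaja2 ILMN_2720580 was higher (11.05, beside 10.46 to 10.54).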

How the results depend on the processing

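Over the 19 alternatives, 41 of 544 values compared turned direction, and none of the 41 belonged to Hspa4l or to the 7 called chaperone probes detected on at least 1 array. The called but undetected Hspa12a was not among these values and went from 0.39 to -0.34 without normalization. The number of chaperone probes past the adjusted threshold, 1, became 2 with neqc and with arrayWeights and 0 with the shift, with the detection filter at 0.01, with the replicate block and with limma-trend, and was 0 to 2 when an array was left out. Over all probes the same number, 252, became 413 with neqc, 642 with arrayWeights, 107 with the shift and 45 with limma-trend. It was 87 to 637 when an array was left out. Dnajc11 ILMN_2643177 passed with neqc (adjusted p = 0.0736) and with the detection filter at 0.05 (0.0921), and Hspa5bp1 ILMN_1226606 without mock array 2 (0.0523). The number past p and fold, 10, became 29 without normalization, of which 28 were lower, 15 with arrayWeights (12 lower, 3 higher) and 15 with division by the median (5 lower and 10 higher, beside 8 and 2), and was 6 to 12 when an array was left out. Over all 25697 probes this number, 2317, became 6963 without normalization, 3443 with arrayWeights, 2359 with division by the median and 2196 with the replicate block. It was 1632 to 3053 when an array was left out. These counts include undetected probes, so they are a loose background for the members and for the partner counts that follow. Without normalization 51.3% of all probes detected on all arrays were called lower, beside 25 of the 50 chaperone probes so detected. With division by the median 6.62% of all probes so detected were called lower and 8.11% higher. Of the 61 partner probes, 52 were detected on all arrays. The number of partner probes, 4, became 29 without normalization, 8 with division by the median, 2 with the replicate block and 10 with arrayWeights, and was 1 to 11 when an array was left out, 11 without mock array 2, 1 without Bcl11b array 1 and 7 without Bcl11b array 4. The median log2 fold change of the 50 probes, -0.11, became -0.72 without normalization (all probes -0.68) and 0.034 with division by the median (all probes 0.067), and was -0.17 to -0.05 when an array was left out.

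With the replicate number as a block, calls over all probes went from 252 to 45; 2 of 4 arrays correlated best with their own number.

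Without normalization the direction turned for Hspd1 (-0.24 and -0.56), Dnaja3 (-0.58), Dnajb1 (-0.46), Dnajc19 (-0.0048), Hspa8 ILMN_2918479 (-0.23), Hspb1 (-0.59), Hspb8 (-0.43) and Hspe1 (-0.20). With division by the median it turned for Hspa8 ILMN_1260103 (0.73), Cct6a (0.40), Bag1 (0.22), Hspcb (0.25, 0.043 and 0.15) and Hsf2 (0.051). With arrayWeights it turned for Hspd1 (-0.029 and -0.29), Dnaja3 (-0.041), Dnajb1 (-0.0051), Hspa8 ILMN_2918479 (-0.083) and Hsf2 (0.00094). When an array was left out, the range crossed 0 for Hspd1 (-0.072 to 0.14 and -0.28 to 0.16), Dnaja3 (-0.062 to 0.075), Dnajb1 (-0.011 to 0.16), Hspa8 ILMN_2918479 (-0.12 to 0.22), Hspb1 (-0.13 to 0.46), Hsf2 (-0.20 to 0.11) and Hspa1a (-0.11 to 0.11). The causes were not tested.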
